A study of Caenorhabditis elegans with 4 samples.

Results

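The vitellogenins are the yolk proteins of Caenorhabditis elegans, and 6 genes, vit-1 to vit-6, encode them. Peaks of RNA bound after UV crosslinking were taken as vitellogenin peaks where they shared at least 1 bp with 1 of these genes on either strand, with gene positions from the assembly WBcel235. This gave 19 of the 2664 peaks listed for MSTR-1 CLIP and 0 of the 310 peaks listed for N2 CLIP. Each of the 19 lay over that vitellogenin gene alone. No source used here names the build of the peaks. Peak coordinates are printed as listed and may be off by 1 nt, since their counting convention is not given.

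The assay was eCLIP, in which RNA crosslinked to an immunoprecipitated protein is sequenced, on lysate of whole young adult worms grown at 25 °C and given a UV dose of 1.2 mJ/cm2. The 2 MSTR-1 CLIP libraries came from worms with the allele on49, which puts a 3xFLAG tag on MSTR-1, the product of F22D6.2 on chromosome I. The design text calls them biological replicates. The single size-matched input came from the same tagged genotype, and the single N2 CLIP library from untagged N2 worms. The columns do not say which MSTR-1 library is which replicate, so library A and library B are used as names.

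Vitellogenins are made in the intestine of the adult hermaphrodite, secreted with lipid into the body cavity and taken up by growing oocytes through the receptor RME-2. Their messages are among the most abundant of the adult worm. The proteins encoded by vit-3, vit-4 and vit-5 are similar in sequence, so a short read may be placed on any of these genes, and their sum is given beside the single values. The MSTR-1 CLIP libraries and the input came from whole worms of the same genotype. The fold over the input therefore measures neither the number of intestinal cells nor the message per cell.

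The deposited value of a peak is its reads divided by 1 size factor per library, here called scaled reads. Reads inside all peaks of the MSTR-1 table numbered 2438775 in library A and 3592308 in library B, against 408945 in the input, and 92.0%, 92.4% and 68.6% of them lay in peaks over ribosomal RNA genes. Of the markers fixed for whole-worm tissues, 1 of 4 intestinal, 1 of 4 oocyte, 2 of 2 muscle and 2 of 2 hypodermal genes had an MSTR-1 peak. The table holds no peak whose mean CLIP value is under 0.50 of the input. A stretch of message further below the input therefore has no peak in it, and the folds given here describe peaks that passed this selection.

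The peaks fell on 4 of the 6 genes. There were 8 on vit-2 (X, 5101032 to 5106169), 6 on vit-6 (IV, 8261157 to 8266459), 4 on vit-5 (X, 3403471 to 3408603) and 1 on vit-4 (X, 3558769 to 3563965). No peak was listed over vit-1 (X, 7727889 to 7733168) or vit-3 (X, 3567355 to 3572549). The MSTR-1 peak nearest to vit-3 was the vit-4 peak, 6796 nt away, and the one nearest to vit-1 was 1685 nt away over spp-14. The absence of a listed peak gives no level for these genes. No source used here says how reads that match several vitellogenin genes were placed.

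The summed listed peaks of vit-2 and those of vit-6 lay below the input in both MSTR-1 CLIP libraries. Of the 5 peaks on vit-4 and vit-5, 2 lay below it in both libraries. The 19 peaks together held 960 reads in library A and 1467 in library B, against 1145 in the input. On the scaled values these sums were 1042 in library A and 961 in library B, against 1651 in the input, so both CLIP libraries were lower. The fold over the input was 0.631 in library A, with a 95% interval of 0.579 to 0.688, and 0.582 in library B, with an interval of 0.538 to 0.629. The mean fold was 0.607 ± 0.0348 (SD, n = 2). These intervals are exact binomial intervals (Clopper-Pearson) on the reads and cover counting error only. They hold no spread between inputs, of which there was 1. Shares of the reads inside listed peaks outside ribosomal RNA need no size factor. The 19 peaks took 0.892% of these reads in the input, against 0.492% in library A and 0.538% in library B. Reads outside listed peaks are not counted in these shares.

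**Figure D1:**
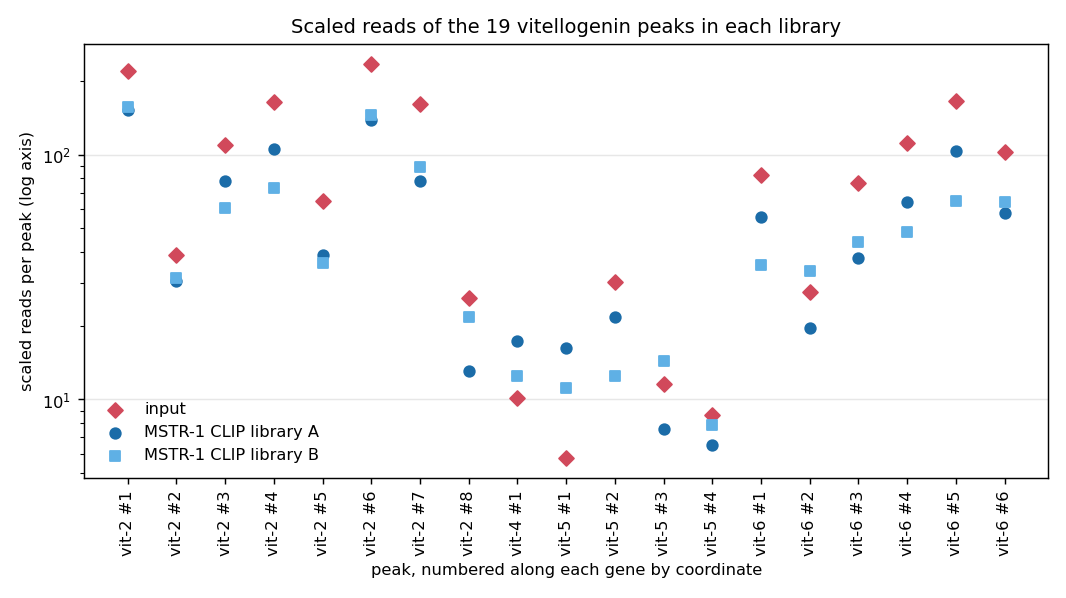
Scaled reads per peak (log axis) for each of the 19 vitellogenin peaks, numbered along each gene by coordinate, with 1 point per library (input, library A, library B). The input is the highest of the 3 libraries at 15 peaks, and at vit-4 peak 1 and vit-5 peak 1 it is the lowest.

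Peak by peak, both CLIP libraries lay below the input at 15 of the 19 peaks, while 22.0% of all 2664 peaks did so. Both lay above it at 2 peaks, against 53.0% of all peaks. At vit-6 peak 2 and vit-5 peak 3 the libraries stood on either side of the input. In limma, fitted over all peaks on log2(scaled reads + 1), 5 of the 19 peaks were lower than the input at an adjusted p under 0.05, where 1.76% of all peaks were called lower. None of the 19 was called higher, where 12.7% of all peaks were, and none had an unadjusted p under 0.05 in that direction. edgeR's quasi-likelihood test on the recovered reads called 4 lower, against 1.24% of all peaks, and 0 higher, against 10.5%. The median log2 change was -0.72 over the 19 peaks and 0.45 over all peaks.

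The number of calls depended on the scaling and the test. In limma with TMM scaling 11 of the 19 peaks were lower, against 9.05% of all peaks, and with DESeq2's size factors 11 were lower, against 7.47%. With column totals 18 were lower, but so were 51.1% of all peaks, and with totals over peaks outside ribosomal RNA 5 were lower, against 1.39%. DESeq2's test called 0 of the 19, where it called 0.113% of all peaks lower, and 4 of the 19 had an unadjusted p under 0.05. Limma without a variance trend called 0, where it called 0.00% of all peaks in either direction and gave none of the 19 an unadjusted p under 0.05. The share of all peaks called higher was 8.86% with TMM, 8.60% with DESeq2's size factors, 2.14% with column totals, 9.72% with totals outside ribosomal RNA and 3.87% in DESeq2's test. No vitellogenin peak was among them.

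The level of the input moved with these values across the table. The vitellogenin peaks had a median of 53 input reads, against 8 for all peaks. Among the 1173 peaks with at least 10 input reads the median log2 change was -0.08, and it was -0.77 over the 15 vitellogenin peaks among them. Among the 378 peaks with at least 50 input reads it was -0.24, and -0.88 over the 10 vitellogenin peaks among them. At that depth 56.6% of peaks had both CLIP libraries below the input, and all 10 vitellogenin peaks did. Both filters select on the input, by which the fold is divided, and so favour low folds. The filter of 50 was chosen after seeing the data. The part of the input level in the result was not tested.

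The tissue markers stood at different places against the input. The 24 muscle peaks had a median log2 change of 0.78 over the input. Both CLIP libraries lay above the input at 23 of them, and at 53.0% of all peaks. Limma called 7 of the 24 higher, where 12.7% of all peaks were called higher. All 7 lay on unc-54, and some of these were overlapped by an N2 CLIP peak. No peak of the other muscle gene, myo-3, passed. The 4 peaks of the intestinal marker act-5 had a median of -0.08, the 4 hypodermal peaks 0.54 and the single oocyte marker peak, over rme-2, -0.04. None of these was called in either direction. The hypodermal median joins unlike genes. The col-19 peaks, which also lay over hrg-11.4, stood at 0.07 and 0.13. Those of rol-6 stood at 2.46 and 0.94, with 1 and 6 input reads. The part of tissue in the vitellogenin values was not tested.

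**Figure D2:**
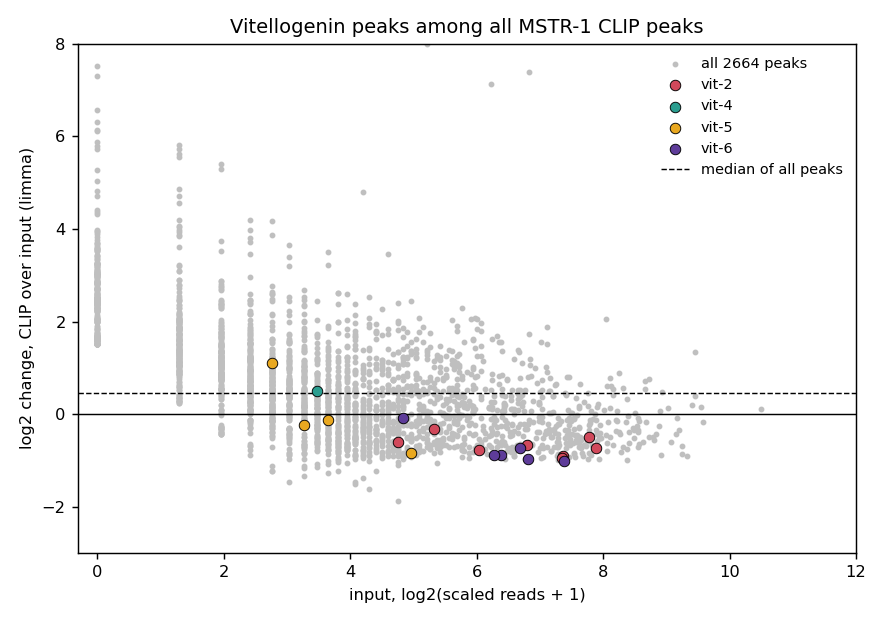
Change of each MSTR-1 peak over the input on the log2 scale (vertical axis, limma) against the input level as log2(scaled reads + 1), with all 2664 peaks in grey and vitellogenin peaks coloured by gene (12 peaks lie outside the axes). Most vit-2 and vit-6 points lie near the lower edge of the cloud, where the listing ends, and the vit-4 point and 1 vit-5 point lie above 0.

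The gene vit-2 encodes a major yolk protein and had the most peaks and reads. Its 8 peaks summed to 635 scaled reads in library A and 613 in library B, against 1019.7 in the input. Both libraries were below the input, with folds of 0.623 (0.557 to 0.696) and 0.601 (0.544 to 0.663). All 8 peaks had both CLIP libraries below the input, and mean folds ran from 0.518 to 0.794. The interval of the single peak held the fold of the gene's sum at 8 of 8 peaks in library A and at 7 of 8 in library B. The sum is made of these same peaks, and the shallow ones have wide intervals. This is therefore no test of an even fold along the gene.

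The 2 tallest vit-2 peaks in the input were peak 6 (X, 5104409 to 5104719) and peak 1 (X, 5101027 to 5101201). Peak 6 had 128 reads in library A and 221 in library B, against 163 in the input, or 139, 145 and 235 scaled reads. Both CLIP libraries agreed closely there and stood under the input, a log2 change of -0.72 (SE 0.26). It passed in limma (adjusted p = 0.0348) but not in edgeR (adjusted p = 0.0522). In the input this peak ranked 85 by scaled reads among the 2649 peaks outside ribosomal RNA, and it ranked 213 in library A and 182 in library B. Peak 1 had 140, 239 and 152 reads, or 152, 157 and 219 scaled reads in libraries A, B and the input. It too was lower in both libraries, by less than peak 6, and its change of -0.50 (SE 0.25) did not pass in limma (adjusted p = 0.207).

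Peaks 4 and 7 were the other vit-2 peaks with a call. Peak 4 (X, 5102799 to 5103069) had 105 scaled reads in library A and 72.7 in library B, against 164 in the input. The libraries differed more from each other here than at peak 6, but neither reached the input. Its log2 change was -0.90 (SE 0.28, limma adjusted p = 0.0140, edgeR adjusted p = 0.0216). Peak 7 (X, 5104780 to 5105045) had 78.2 and 89.1 scaled reads against 162 in the input. It had the lowest mean fold of the gene, 0.518, with a log2 change of -0.94 (SE 0.29, limma adjusted p = 0.0102, edgeR adjusted p = 0.0160).

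The other vit-2 peaks (2, 3, 5 and 8) had 18 to 76 input reads. Their mean folds were 0.794, 0.632, 0.579 and 0.667, and limma's adjusted p ran from 0.153 to 0.749. Peak 8, the shallowest, had 12, 33 and 18 reads in libraries A, B and the input. Its scaled value was 1.66 times as high in library B as in library A, the widest gap among the vit-2 peaks.

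The gene vit-6 lies on chromosome IV, apart from the X-linked members, and encodes a precursor that is cleaved after secretion into a pair of smaller yolk proteins. Its 6 peaks summed to 338 scaled reads in library A and 290.2 in library B, against 565 in the input. Both libraries were below the input, with folds of 0.597 (0.513 to 0.695) and 0.513 (0.447 to 0.590). Of the 6 peaks 5 had both CLIP libraries below the input and 2 passed in limma and in edgeR.

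The called vit-6 peaks lay next to each other. Peak 5 (IV, 8264165 to 8264367) had 103 scaled reads in library A and 64.9 in library B, against 166 in the input. It had the lowest adjusted p of the 19 peaks, 0.00516 in limma and 0.00831 in edgeR, with a log2 change of -1.01 (SE 0.29). Peak 4 (IV, 8263934 to 8264140) had 64.1, 48.5 and 111 scaled reads, a change of -0.98 (SE 0.32, limma adjusted p = 0.0197, edgeR adjusted p = 0.0278). The mean folds of peaks 4 and 5, 0.507 and 0.506, stood just above 0.50, the lowest mean fold in the table. Peaks 1, 3 and 6 had mean folds of 0.552, 0.536 and 0.595, with limma adjusted p of 0.0751, 0.0820 and 0.110.

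Peak 2 of vit-6 (IV, 8262956 to 8263107) differed from its neighbours. It had 18 reads in library A and 51 in library B, against 19 in the input, or 19.5, 33.4 and 27.4 scaled reads. Library A was below the input and library B above it, so the mean fold of 0.966 joins folds of 0.713 and 1.22. The direction depended on the library. The change did not pass in limma (adjusted p = 0.933).

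The remaining 5 peaks, on vit-4 and vit-5, were shallow. Per 1 kb of peak, the vit-5 peaks had 75.9 scaled reads in the input, against 560 for vit-2 and 456 for vit-6. In library A these densities were 70.3, 349 and 272, and in library B 61.9, 336 and 234. The order vit-2, vit-6, vit-5 was the same in each of the 3 libraries. The single vit-4 peak had 69.1 per 1 kb in the input, 119 in library A and 85.3 in library B. The placement of reads shared by vit-3, vit-4 and vit-5 is not known, so these densities rank listed reads and not messages.

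The lone vit-4 peak (X, 3560413 to 3560559) had 16 reads in library A and 19 in library B, against 7 in the input. Both libraries were above the input, at 17.4 and 12.4 against 10.1 scaled reads. The folds of 1.72 (0.670 to 4.95) and 1.23 (0.496 to 3.47) had intervals that held 1, and the change did not pass in limma (adjusted p = 0.746).

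Peak 1 of vit-5 (X, 3403470 to 3403612) had the highest mean fold of the 19, 2.38. It had 15 reads in library A and 17 in library B, against 4 in the input, or 16.3, 11.1 and 5.77 scaled reads. Both libraries were above the input, but the intervals, 0.899 to 11.7 in library A and 0.630 to 7.89 in library B, held 1, and limma's adjusted p was 0.419. Peak 2 of vit-5 had 20, 19 and 21 reads, a mean fold of 0.564 and both libraries below the input. Peak 3 had 7, 22 and 8 reads, with library A below the input and library B above it. Peak 4 had 6, 12 and 6 reads and a mean fold of 0.831. None of the 4 passed in limma (adjusted p from 0.351 to 0.943).

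Summed over vit-3, vit-4 and vit-5, of which vit-3 has no peak, there were 64 reads in library A and 89 in library B, against 46 in the input. The scaled sums were 69.5, 58.3 and 66.3, so library A stood above the input and library B below it. The folds were 1.05 (0.706 to 1.56) and 0.879 (0.609 to 1.28), a mean of 0.963 ± 0.119 (SD, n = 2). A difference from the input was not detectable at this depth.

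**Figure D3:**
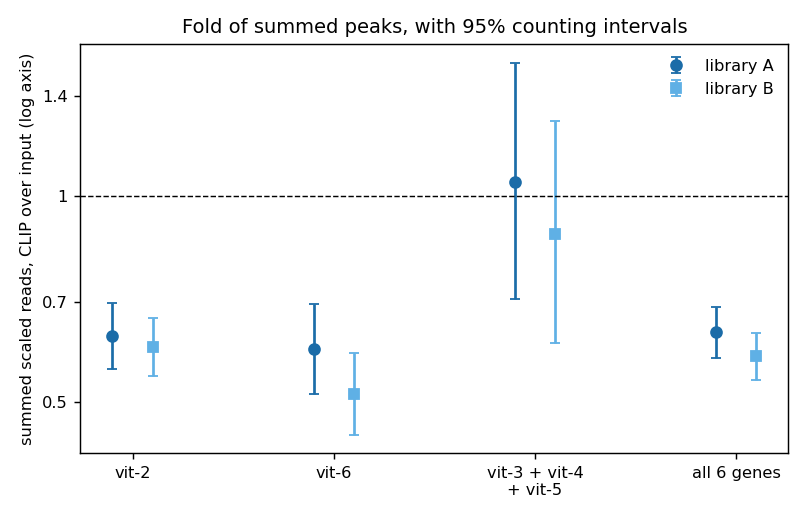
Fold of summed scaled reads, CLIP over input (log axis), for vit-2, vit-6, the sum of vit-3, vit-4 and vit-5, and all 6 genes, in library A (circles) and library B (squares). Bars are exact binomial 95% intervals of counting error, and the dashed line marks a fold of 1, which the intervals of vit-2, vit-6 and all 6 genes lie below and those of the 3-gene sum include.

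Whether the genes differed from each other was read from the ratio of their folds within a library, in which the size factors cancel. The fold of the 3-gene sum was 1.68 times that of vit-2 in library A (95% interval 1.11 to 2.55) and 1.46 times in library B (0.999 to 2.17). Against vit-6 it was 1.75 times in library A (1.15 to 2.70) and 1.71 times in library B (1.15 to 2.57). The intervals are exact conditional ones, cover counting error only and are not adjusted for the 10 ratios computed. Both libraries are set against the same input reads, so their ratios are not independent. The genes also differed in depth. Input reads per peak ran from 4 to 21 on vit-4 and vit-5, 18 to 163 on vit-2 and 19 to 115 on vit-6. Across the table the median log2 change was 0.45 over all peaks and -0.24 over those with at least 50 input reads. The part of depth and of peak selection in these ratios was not tested. Without the first vit-5 peak, which was singled out after its values were seen, the ratios stayed above 1 but their intervals held 1. Then the ratio to vit-2 was 1.41 (0.900 to 2.22) in library A and 1.30 (0.862 to 1.97) in library B, and the ratio to vit-6 was 1.47 (0.927 to 2.34) and 1.52 (0.996 to 2.33). The fold of vit-6 was 0.959 times that of vit-2 in library A (0.793 to 1.16) and 0.855 times in library B (0.720 to 1.01), intervals that hold 1.

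Along the genes the peaks left long stretches empty. The gene table used here gives no strand, so places are counted from the end with the lower coordinate. Listed peaks covered 35.3% of the 5138 nt of vit-2, 23.4% of the 5303 nt of vit-6, 14.4% of the 5133 nt of vit-5 and 2.81% of the 5197 nt of vit-4. The median length of the 19 peaks was 216 nt, against 164 nt for all peaks and 220.0 nt for all peaks with at least 10 input reads.

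On vit-2 the first peak began 5 nt before the gene's lower end and the last ended 726 nt before its upper end. The longest gaps between vit-2 peaks were 992 nt, between peaks 5 and 6, and 918 nt, between peaks 1 and 2. The vit-6 peaks all lay in the middle, from 1561 to 3532 nt, leaving 1561 nt at the lower end and 1770.0 nt at the upper end without a peak. On vit-5 peak 1 began 1 nt before the lower end and peak 4 ended 32 nt before the upper end, with 3011 nt free between peaks 3 and 4. The vit-4 peak lay 1644 to 1790.0 nt from the lower end.

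**Figure D4:**
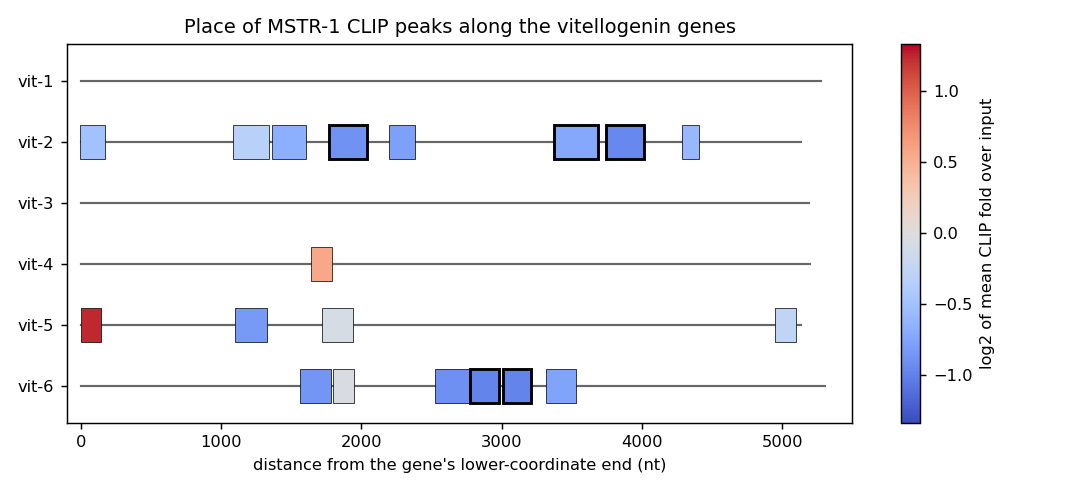
Place of each MSTR-1 peak along the 6 vitellogenin genes, as distance in nt from the gene's lower-coordinate end, coloured by log2 of the mean CLIP fold over input, with thick outlines for the 5 peaks called lower by limma. The vit-1 and vit-3 lines are empty, vit-6 peaks keep to the middle of the gene, and the called peaks lie on vit-2 and vit-6.

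All peaks of vit-2, vit-5 and vit-6 are listed on the minus strand and the vit-4 peak on the plus strand. Laid side by side from the lower end for minus and from the upper end for plus, the vit-4 peak (3406 to 3552 nt) fell wholly inside the stretch of vit-2 peak 6 (3377 to 3687 nt). Of the 4 vit-5 peaks 3 shared a stretch with a vit-2 peak. Peaks 1 and 2 of vit-5 did so over 100% of their length, with vit-2 peaks 1 and 2, and peak 3 over 77.4%, with vit-2 peak 4. Of the 6 vit-6 peaks 3 shared a stretch with a vit-2 peak, over 19.2%, 100% and 71.8% of their length. This layout was chosen after the positions were seen, counts introns as part of the gene and uses no sequence alignment.

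The spread between the MSTR-1 libraries was taken from their difference at each peak. The median absolute difference was 0.39 over the 19 peaks and 0.48 over all peaks on the log2(scaled reads + 1) scale. With at least 10 input reads it was 0.37 over vitellogenin peaks and 0.30 over all peaks, and with at least 50 it was 0.29 and 0.20, so at these depths the vitellogenin median was the larger one. Library B was the higher one at 10 of the 19 and at 48.6% of all peaks. Among peaks with at least 50 input reads it was higher at 5 of 10 vitellogenin peaks and at 27.8% of all. The widest gaps were at vit-5 peak 3, where library B was 1.90 times library A, and vit-5 peak 2, where it was 0.573 times. With library A alone the median log2 change of the 19 peaks was -0.56, against 0.35 for all peaks, and with library B alone it was -0.70, against 0.52.

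N2 worms carry no FLAG tag, so N2 CLIP shows what the immunoprecipitation brings down without it. No N2 peak overlapped a vitellogenin gene. The nearest was 20681 nt from vit-6, over nucl-1, and on the X chromosome the nearest to a vitellogenin gene was 42980.0 nt from vit-2, over dpy-8. Of all MSTR-1 peaks 8.75% were overlapped by an N2 peak on the same strand, and of the 585 with both CLIP libraries below the input 5.30% were. The N2 table lists no peak below its input and none with fewer than 11 N2 reads. It therefore gives no N2 level for vitellogenin messages, and MSTR-1 and N2 CLIP were not compared at these genes.

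On the X chromosome, where 13 of the 355 MSTR-1 peaks were vitellogenin peaks, the median log2 change of the other 342 was 0.55. Limma called 5 of the 355 X peaks lower than the input, where 1.76% of all 2664 peaks were. Of these, 3 were the vit-2 peaks 4, 6 and 7, and 2 were among the other 342. The 3 vit-2 peaks had 114, 163 and 112 input reads, against a median of 8 for X peaks. All 47 peaks called lower in the whole set had at least 50 input reads.

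Other genes of the yolk pathway had few peaks. Of 21 genes listed for vit transcription, signalling, lipid loading, uptake and yolk breakdown, 5 had an MSTR-1 peak, with 9 peaks in all. None of the 9 passed in limma in either direction, where 1.76% of all peaks were called lower and 12.7% higher, so 0 of 9 is near the share of all peaks. Both CLIP libraries lay below the input at 3 of the 9, where 22.0% of all peaks did so. They both lay above it at 3, against 53.0% of all peaks. None of the 21 genes had an N2 peak. Their median log2 change was -0.04, against -0.72 for the vitellogenins and 0.45 for all peaks.

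The receptor gene rme-2, which takes yolk into the oocyte, had 1 peak (IV, 5470189 to 5470305) with 12 reads in library A and 33 in library B, against 12 in the input. Its scaled reads were 13.0, 21.6 and 17.3, so the libraries stood on either side of the input, with a log2 change of -0.04 (SE 0.56, limma adjusted p = 0.975). The gene cpl-1, a cathepsin L protease that acts on yolk proteins in the embryo, had 3 peaks with 38 to 54 input reads. Their mean folds were 0.917, 0.644 and 0.981, and limma's adjusted p was at least 0.341. These 3 peaks were of a depth like that of the middle vitellogenin peaks.

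The clathrin heavy chain gene chc-1, which acts in endocytosis, had 2 peaks. One had 2 and 13 CLIP reads with 0 in the input. The other had 3, 28 and 14 reads in libraries A, B and the input, or 3.26, 18.3 and 20.2 scaled reads. Both CLIP libraries lay below the input there, with a log2 change of -1.22 (SE 0.71, limma adjusted p = 0.311). The gene rict-1, a component of the TORC2 kinase complex, had 2 peaks with 1 input read each, of which 1 also lay over dbd-8. The transcription factor gene daf-16 had 1 peak with 0, 13 and 0 reads in libraries A, B and the input. At these depths no difference from the input was detectable.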

How the data were processed

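The submitters' processing notes name STAR, cutadapt, deepTools and UMI-tools, with no role stated. No source used here names a peak caller, a threshold, a build or an annotation. Each library column deposited by the authors is a signal, the reads of a peak divided by 1 size factor per library. In every column 100% of values were whole multiples of 1 step within 0.02 of a read, so whole reads were recovered. The deposited ratio (fold) of the authors for MSTR-1 adds up both CLIP columns before dividing by the input. Folds here use each CLIP library, or their mean, over the input.

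Peaks were joined to the RefSeq gene table of WBcel235 by position, leaving out 15363 piRNA genes. The main test was limma 3.58.1 in R 4.3.3 on log2(scaled reads + 1), with a variance trend and Benjamini-Hochberg adjustment over all 2664 peaks. On this scale the change of shallow peaks is understated. The fit takes the spread of the single input from the CLIP libraries, and the trend pools that spread over peaks of like level, so an adjusted p says little about the agreement of libraries A and B at 1 peak. edgeR 4.0.16 and DESeq2 1.42.0 were run on the recovered reads. Scripts were tested on simulated data, in which limma with a trend called more unchanged peaks than its threshold allows and edgeR called fewer of them than limma, so edgeR's result stands beside limma's at the called peaks. Alternatives covered scaling, pseudocount, trend, filters, the overlap rule and each CLIP library alone. All 6 genes and every peak were named, and of the pathway list every gene with a peak. The members and lists were chosen with earlier results of these data known. No sequence is shown, since none was used here.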

Additional observations from a re-analysis of the deposited data

How the results depend on the processing

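The vitellogenin sum stayed below the input under every scaling tried, but its size moved. Against 0.607 with the authors' size factors, the mean fold was 0.448 with TMM, 0.460 with DESeq2's size factors and 0.143 with column totals, and 0.582 to 0.631 with 1 CLIP library left out. For vit-3, vit-4 and vit-5 it was 0.711, 0.730 and 0.227 with these scalings, 0.879 to 1.05 with 1 library left out, and 0.829 without the first vit-5 peak (chosen after seeing the data), against 0.963. The median log2 change of the 19 peaks was -1.16 with TMM, -1.12 with DESeq2's size factors, -2.80 with column totals, -0.88 over peaks with at least 50 input reads (chosen after seeing the data) and -0.70 to -0.56 with 1 library left out. Relative to the median of all peaks it was -1.18 with the authors' scaling, -1.22 with TMM and -1.31 with column totals. This gap was smaller among deeper peaks, at -0.70 with at least 10 input reads and -0.65 with at least 50.

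The number of vitellogenin peaks called lower was 11 with TMM, 11 with DESeq2's size factors, 18 with column totals and, among the 10 vitellogenin peaks with at least 50 input reads, 8, where 17.7% of all 378 such peaks were called lower, against 5. It was 0 in limma without a trend, with 0 of the 19 at an unadjusted p under 0.05, and 0 in DESeq2's test, with 4 such peaks. Column totals over peaks outside ribosomal RNA (chosen after seeing the data) gave 5. Of the 9 yolk pathway peaks 1 was lower with TMM, 1 with DESeq2's size factors and 5 with column totals, where 9.05%, 7.47% and 51.1% of all peaks were, and their median was -0.45, -0.42 and -2.02, and 0.00 to 0.31 with 1 library left out. With column totals vit-5 peak 1 turned to -0.79 and vit-4 peak 1 to -1.44. With 1 library left out, vit-6 peak 2 ran from -0.47 to 0.28 and vit-5 peak 3 from -0.54 to 0.30, both above 0 without library A. The cause was not tested.

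Leaving out a CLIP library left 1 against 1, so no call was made. Keeping peaks over exactly 1 gene, or with at least 50% of their length in the gene, changed no vitellogenin value. The planned restriction to the gene's strand was not run, because the gene table used gives no strand. No paired analysis was possible because the labels number only the MSTR-1 CLIP libraries, and the columns carry no such number. The p-values hold no spread between inputs. Their spread comes from the 2 CLIP libraries and is pooled over peaks, so it is not that of 1 peak alone. Depth limits the vit-4 and vit-5 values, with 4 to 21 input reads a peak.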
